A study of Homo sapiens with 5 samples.

Results

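Namalwa is a cell line from a Burkitt lymphoma and Reh a cell line from a pro-B lymphoblastic leukaemia. Their open chromatin was compared here on lists of the same length. Accessibility had been measured by DNase-seq, in which DNase I cuts nuclear DNA where chromatin is open and the released fragments are sequenced. All 5643 Namalwa peaks on chromosomes 1 to 22 were set against the 5643 Reh peaks of the same chromosomes with the highest score, so that 11286 of the 109692 deposited peaks of the series entered the comparison. The score is the authors' peak area, which rises with both the height and the width of a peak. Peaks of the 2 sets were called shared if they had at least 1 bp in common.

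The Namalwa nuclei had been digested with DNase I at 12 U/ml and the Reh nuclei at 6 U/ml, both from passage 7, with no other treatment in the labels. The labels class both lines as non-Hodgkin, and state that the enzyme was titrated for each line to a like extent of digestion. The series also holds 3 Hodgkin lymphoma lines, L1236 and L428 at 6 U/ml and L591 at 12 U/ml, which were used only to place the peaks of the 2 sets. Each line gave 1 library and 1 peak list, so differences between lines have no replicate error, no test was made, and cell line, enzyme concentration and library cannot be told apart. The lists hold no read counts and their depth is unknown. All positions are in hg18, without gene names, because no hg18 annotation was used here. For the same reason the line names were not checked against marker genes.

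B cells develop from pro-B cells of the bone marrow, which rearrange their immunoglobulin heavy chain genes, to mature B cells that enter germinal centres. Pro-B leukaemias resemble the early stage, whereas Burkitt lymphoma resembles proliferating germinal centre B cells and carries a translocation that places MYC under immunoglobulin control. Open sites at promoters tend to be common to many cell types, and sites far from genes differ more between stages and lineages.

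The Reh set was the upper part of a much longer list. It took 20.5% of the 27502 Reh peaks on these chromosomes, with scores from 4520 upwards. The lowest peak inside, on chromosome 19 at 56091591 to 56092050, and the first outside, on chromosome 22 at 32646861 to 32647610, had the same score of 4520. They were separated only by the order of chromosomes, and 10 of the 11 Reh peaks with that score were inside. Namalwa scores began at 808. Because the score is an area, the Reh set consisted of wide peaks (median 700 bp, 4.39 Mb in all), while the Namalwa set held peaks of every width in its list (median 290 bp, 1.99 Mb in all). The median score per bp was 10.95 in the Reh set and 7.12 in the Namalwa set, on scales with no common unit.

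Most peaks of either set overlapped a peak of the other. Of the Namalwa peaks, 4397 (77.9%, exact 95% Clopper-Pearson interval 76.8 to 79.0) overlapped a peak of the Reh set. In the other direction 3910 of the Reh peaks (69.3%, 68.1 to 70.5) overlapped a Namalwa peak. The 2 shares differ because several narrow Namalwa peaks could lie in 1 wide Reh peak: 414 of the overlapped Reh peaks held 2 or more. With every peak set to 200 bp around its centre the shares were 61.5% of Namalwa and 60.5% of Reh peaks. Intervals here and below cover counting error only. The Hodgkin lines, taken at the same length, held a peak at fewer of the Namalwa peaks: L591 at 55.5%, L428 at 47.0% and L1236 at 34.6%. They held a similar share of the Reh set, with 56.8% in L591, 48.5% in L428 and 32.5% in L1236.

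The overlap rose with the score in both sets. Among the 10% of Namalwa peaks with the lowest scores 41.4% had a partner in the Reh set (37.2 to 45.6), and among the highest 10% 565 of 566 had one. The Reh set ran from 35.8% in its lowest 10% (31.8 to 39.9) to 562 of 564 in its highest 10%. The strongest sites of both lines were thus shared with 3 exceptions, which are a Namalwa peak on chromosome 12 and Reh peaks on chromosomes 7 and 1 described below.

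**Figure D1:**
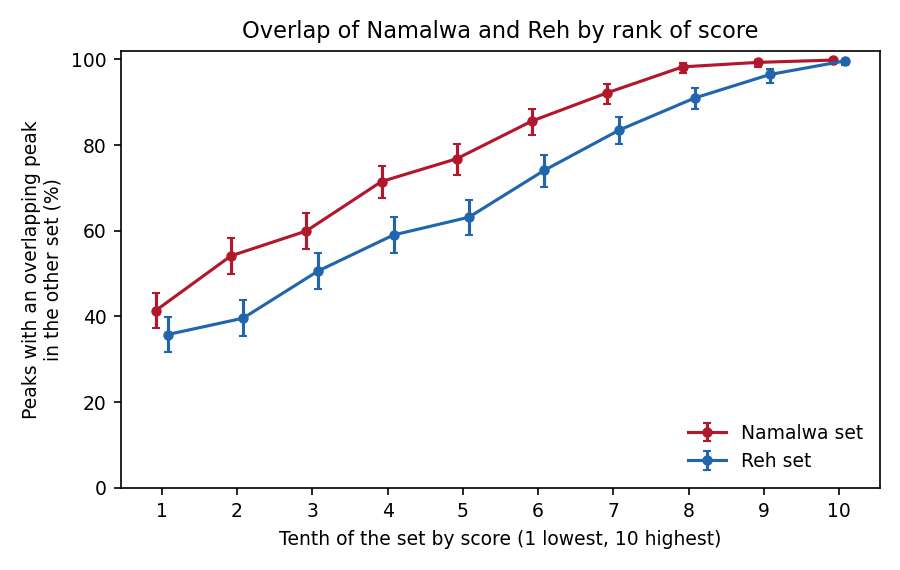
The horizontal axis gives classes of 10% of each set by score, from the lowest to the highest, and the vertical axis the percentage of its peaks that overlap a peak of the other set, with exact 95% intervals as bars. Both curves rise, from 41.4% in Namalwa and 35.8% in Reh to 99.8% and 99.6%.

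The peaks found in the Namalwa set alone numbered 1246, or 22.1% of the set. Nearly all of them were also accessible in Reh at a lower rank. The rest of the Reh list held an overlapping peak at 1156 (92.8%, 91.2 to 94.2), with a median percentile of 70.1 in the whole Reh list, where the set began at 79.5. The quartiles of these Reh percentiles were 60.9 and 75.5. Namalwa-only peaks were thus mostly sites whose Reh peak fell below the limit, and few were sites without a Reh peak. They were narrow, with a median of 220 bp against 330 bp for the shared Namalwa peaks, and ranked low, with a median percentile of 21.0 in Namalwa. With every peak set to 200 bp around its centre, 2175 Namalwa peaks and 2228 Reh peaks had no partner.

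Only 90 Namalwa peaks (1.59%, 1.28 to 1.96) overlapped no Reh peak of any score. Their median percentile in the Namalwa list was 7.52, and the highest was 61.3. A Hodgkin line had a peak at 54 of the 90 (60%, 49.1 to 70.2), compared with 73.4% of all Namalwa-only and 90.7% of shared Namalwa peaks. The other 36 had a peak in no other line. The 5 highest-ranking ones are named here, a choice made after their values were seen. The highest-ranking one lay on chromosome 10 at 95452111 to 95452580 (score 2568), with L1236 at percentile 26.3 of its list and L591 at 27.1. The next lay on chromosome 5 at 137701631 to 137701950 (percentile 58.0), where L428 had a peak at percentile 16.9, L591 at 50.4 and L1236 at 67.1. Peaks on chromosome 1 at 141858721 to 141859090 (percentile 54.1) and on chromosome 6 at 160441631 to 160441780 (53.7) had none in any other line. One on chromosome 5 at 60093121 to 60093280 (48.6), was among the strongest L1236 peaks, at percentile 99.8.

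Among the 10 Namalwa-only peaks with the highest scores, all had a lower-ranking Reh peak. The first, on chromosome 12 at 64737521 to 64737680, scored 9296 in Namalwa, at percentile 96.5, and 2464 in Reh, at percentile 61.0 of the whole Reh list. L428 had a peak there at percentile 75.1 and L591 at 6.03, and L1236 had none. At 160 bp it was among the narrow peaks of the list, and its 58.1 score units per bp were the most of any Namalwa-only peak. Peaks of 160 bp or less made up 3 of these 10, the others being on chromosome 8 at 68660241 to 68660400 and on chromosome 20 at 53577001 to 53577150. The chromosome 8 peak was at percentile 79.8 in Namalwa and 73.6 in Reh, and higher in each Hodgkin line (99.8 in L1236, 98.4 in L428 and 97.5 in L591). The site on chromosome 11 at 122379411 to 122379670 had the same order, with 80.9 in Namalwa, 72.0 in Reh, 99.7 in L1236, 97.6 in L428 and 98.3 in L591. The chromosome 20 peak stood at percentile 76.2 in Namalwa, 39.1 in Reh and 26.6 in L428, with none in L1236 or L591.

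At 5 of the other sites the Reh score was between 3680 and 4328, below the limit of 4520. On chromosome 11 at 66801341 to 66801990 the scores were 4176 in Namalwa and 4328 in Reh, and among the Hodgkin lines L591 alone had a peak, at percentile 61.8. A peak on chromosome 5 at 49467691 to 49468020, 31 bp from a peak of the Reh set, scored 3888 and 3912, and one on chromosome 16 at 35097001 to 35097280 scored 3384 and 3680. Farther below the limit was the Reh peak at a site on chromosome 8 at 43211921 to 43212310, with scores of 4152 in Namalwa and 2872 in Reh. The sites on chromosomes 5, 16 and 8 had a peak in every Hodgkin line, strongest in L1236, with percentiles of 96.0, 93.5 and 95.8. Peaks on chromosome 19 at 7576381 to 7576950 (scores 3344 and 4128) and on chromosome 1 at 12135981 to 12136470 (3288 and 4120), had no Hodgkin peak.

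Reh peaks without a Namalwa peak numbered 1733, or 30.7% of the Reh set. Unlike the Namalwa-only peaks they had no weaker partner, since the Namalwa list was used whole. They ranked low in the Reh set, with a median percentile of 25.9, and their median width of 680 bp was close to the 720 bp of the shared Reh peaks. Their median score per bp was 8.63 against 12.2 for the shared peaks. The nearest Namalwa peak lay at a median distance of 60531 bp, and 298 (17.2%, 15.4 to 19.1) had one within 5000 bp.

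Several of the strongest Reh-only peaks flanked a Namalwa peak. Of the 10 with the highest scores, 5 lay within 1500 bp of one. The first was on chromosome 7 at 56405621 to 56407170, at percentile 91.1 of the Reh set and 1421 bp from the nearest Namalwa peak. L428 had a peak there at percentile 99.5 and L591 at 47.8. On chromosome 1 a Reh-only peak of 1950 bp at 159760191 to 159762140 (percentile 90.3) lay 221 bp from a Namalwa peak, and one of 1510 bp at 159697381 to 159698890 (87.5) lay 451 bp from one. The former had no Hodgkin peak, and the latter had one in each line, with L591 at percentile 91.3, L1236 at 88.3 and L428 at 17.9. On chromosome 17 the peak at 33359021 to 33361110 (88.3) was 1061 bp from a Namalwa peak, and on chromosome 19 that at 41462521 to 41464130 (84.7) was 161 bp from one. The chromosome 17 peak had no Hodgkin peak, and that of chromosome 19 only a weak one in L428, at percentile 0.642.

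The other 5 stood farther from any Namalwa peak. A site on chromosome 11 at 58101631 to 58103130 (percentile 84.7 of the Reh set) was 523241 bp from the nearest, although each Hodgkin line had a strong peak there, with L591 at percentile 97.3, L1236 at 94.99 and L428 at 92.5. Likewise the peak on chromosome 15 at 81470651 to 81471920 (84.3) was 195001 bp away and had Hodgkin peaks, of which L591 was highest at percentile 82.1, L1236 stood at 66.1 and L428 at 63.2. Peaks on chromosome 19 at 51057351 to 51058600 and on chromosome 12 at 6449801 to 6450740 were also present in all 3 Hodgkin lines, the latter at percentile 96.8 in L428. On chromosome 20 the peak at 62179031 to 62180290 was found in no other line.

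**Figure D2:**
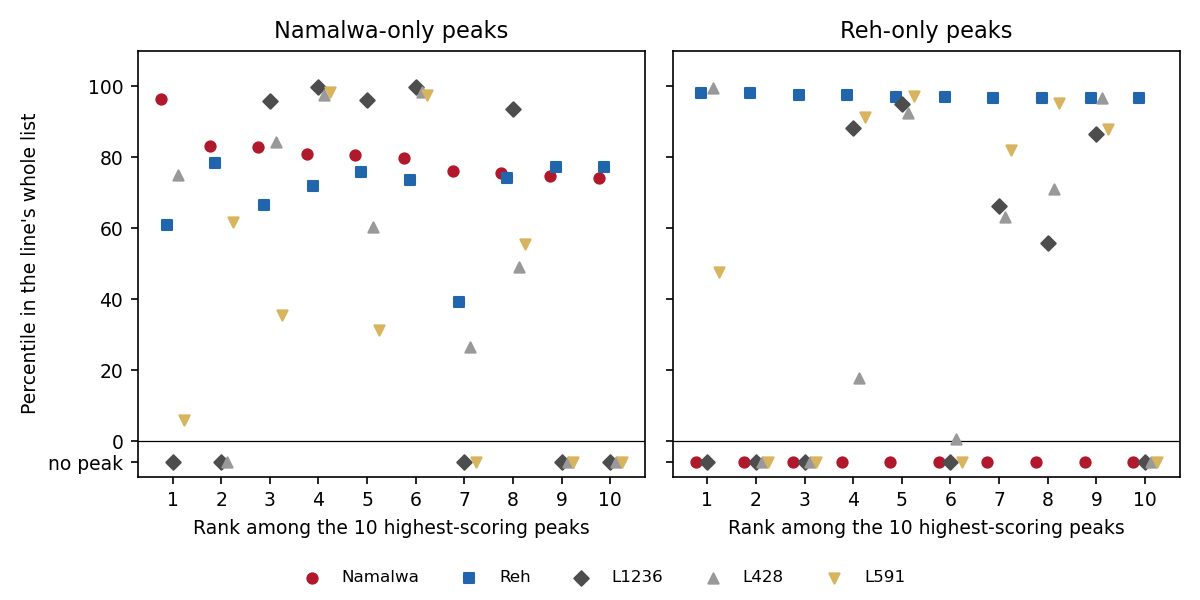
For the 10 highest-scoring Namalwa-only peaks (left) and Reh-only peaks (right), ordered by rank on the horizontal axis, each symbol gives the percentile of the overlapping peak in the whole list of 1 line, or no peak, at the bottom. The lists differ in length, so percentiles of different lines are not on 1 scale. Reh had a peak at all 10 sites on the left and Namalwa at none on the right, while the Hodgkin lines had a peak in all 3 lines at 5 of the 10 sites on either side.

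Presence in the Hodgkin lines was not used to choose the peaks, and it was more frequent at the shared than at the 1-sided sites. Among the shared Namalwa peaks 88.1% had an L591 peak (87.1 to 89.0), 83.0% an L428 peak (81.9 to 84.1) and 72.3% an L1236 peak (71.0 to 73.6). The Namalwa-only peaks reached 64.0% in L591 (61.3 to 66.7), 51.0% in L428 (48.2 to 53.9) and 40.4% in L1236 (37.7 to 43.2). For the Reh-only peaks the shares were 71.9% (69.7 to 74.0), 64.5% (62.2 to 66.8) and 47.5% (45.2 to 49.9). With each set divided into 5 classes by score, the lowest class of the Namalwa set had an L428 peak at 70.6% of the shared (66.5 to 74.4) and 43.7% of the Namalwa-only peaks (39.7 to 47.8), and an L591 peak at 80.7% and 59.0%. The lowest class of the Reh set had an L428 peak at 77.5% of the shared (73.2 to 81.3) and 59.5% of the Reh-only peaks (55.8 to 63.2). Shared Namalwa peaks were wider than Namalwa-only peaks. With these and the Hodgkin peaks set to 200 bp around their centres, L591 shares were 69.1% of shared and 55.8% of Namalwa-only peaks. L428 shares were 74.6% and 48.9%, and L1236 shares 58.4% and 34.3%. For shared Reh and Reh-only peaks they were 76.2% and 60.1% in L591, 75.4% and 55.3% in L428, and 58.4% and 35.9% in L1236.

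Against Hodgkin sets of the same length, Reh-only peaks were found in L428 and L591 more often than Namalwa-only peaks. In L591 the share was 35.8% of the Reh-only (33.6 to 38.1) and 17.7% of the Namalwa-only peaks (15.6 to 19.9), and in L428 29.0% (26.9 to 31.2) and 14.8% (12.8 to 16.9). In L1236 the shares were 15.2% (13.6 to 17.0) and 14.0% (12.2 to 16.1), within counting error of each other. Width was different in the 2 classes, and a wide peak overlaps more easily. With these same peaks and the Hodgkin peaks set to 200 bp around their centres the shares were 29.3% and 11.3% in L591, 25.7% and 13.2% in L428, and 10.7% and 9.31% in L1236. Score differed between the classes too, and its part in the result was not tested. With the whole Reh list in place of the set only 90 Namalwa-only peaks were left, and their share was the higher one. It was 11.1% (5.46 to 19.5) in the L428 set and in that of L591, against 6.97% and 10.2% of Reh-only peaks. Both Reh-only values lie inside that interval, so the order is within counting error. In the L1236 set the shares were 13.3% of Namalwa-only (7.08 to 22.1) and 5.88% of Reh-only peaks. Against the whole Hodgkin lists the order of the classes was not the same under every alternative. A peak in at least 1 Hodgkin line was found at 78.7% of Reh-only and 73.4% of Namalwa-only peaks, but at 69.5% and 83.1% when peaks were ranked by width, at 87.5% and 88.9% in the upper 50% of the lists and at 43.6% and 60% with the whole Reh list.

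**Figure D3:**
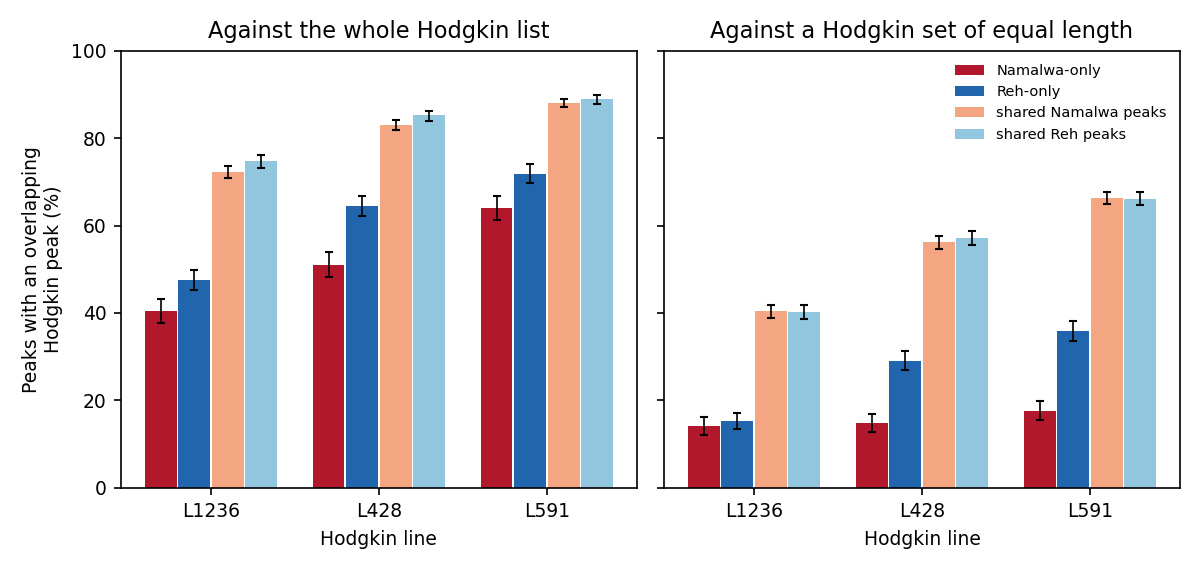
Bars give the percentage of Namalwa-only, Reh-only and shared peaks that overlap a peak of each Hodgkin line, for the whole Hodgkin list (left) and for its 5643 highest-scoring peaks (right), with exact 95% intervals. Shared peaks stand highest in each line, and on the right Reh-only peaks exceed Namalwa-only peaks in L428 and L591, with 35.8% against 17.7% in L591.

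The shared peaks formed 3909 pairs in which each peak was the other's best partner by shared bases. Within a pair the Namalwa peak was usually a narrow core of the Reh peak. It lay wholly inside the Reh peak in 3567 pairs (91.3%), and the Reh peak was 2.02 times as wide in the median, with 720 bp against 340 bp. The Namalwa peak was the wider one in 47 pairs. Centres were 70 bp apart in the median, and in 89.3% of pairs the distance was at most 25% of the Reh width. Only 26 pairs (0.665%) had the same first and last base, compared with 27 of 2445 Namalwa pairs with L428, 11 of 2755 with L591 and 1 of 1604 with L1236. Nesting was not particular to Reh. The Namalwa peak lay wholly inside its partner in 93.2% of its pairs with L591, 72.1% with L428 and 58.5% with L1236.

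Ranks of the pairs were related. Spearman's rho of the score over the 3909 pairs was 0.691. It was 0.616 for the score per bp and 0.390 for the width. Pairs share their library within a line and are not independent, so no p is given. Namalwa pairs with Hodgkin sets of the same length had a rho of 0.465 in L591, 0.398 in L428 and 0.327 in L1236, each over its own pairs. At each of the 10 pairs chosen for the highest percentile in both sets every Hodgkin line had a peak. They included very wide, very high peaks, from 52.5 to 1450 score units per bp in Namalwa and from 103.7 to 1951 in Reh. The set medians were 7.12 and 10.95. Their Namalwa peaks started on chromosome 1 at 554211 and 121185461, on chromosome 5 at 134289851 and 79982031, and on chromosome 6 at 58884051. Others started on chromosome 7 at 61604491, on chromosome 10 at 41710191 and 41704151, on chromosome 11 at 10486841 and on chromosome 16 at 44943231. Whether these sites lie in repeated sequence was not tested, since no hg18 annotation was used.

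A shift was taken as the Namalwa percentile minus the Reh percentile of a pair, each within its own set. The median shift was 0.0886 points and the quartiles were -11.7 and 11.9, and without regard to sign the median was 11.8 points. A shift beyond 25 points, the size taken as a call, was found in 973 pairs (24.9%): the Namalwa percentile was higher in 479 (12.3%) and lower in 494 (12.6%). The pairs nearest to the limit had shifts of 25.04 and 24.98 upwards and of -25.01 and -24.96 downwards. Shifts beyond 50 points were found in 84 pairs upwards and 96 downwards. Ranked by width in place of score, 43.1% of pairs moved by over 25 points, with a rho of 0.342.

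**Figure D4:**
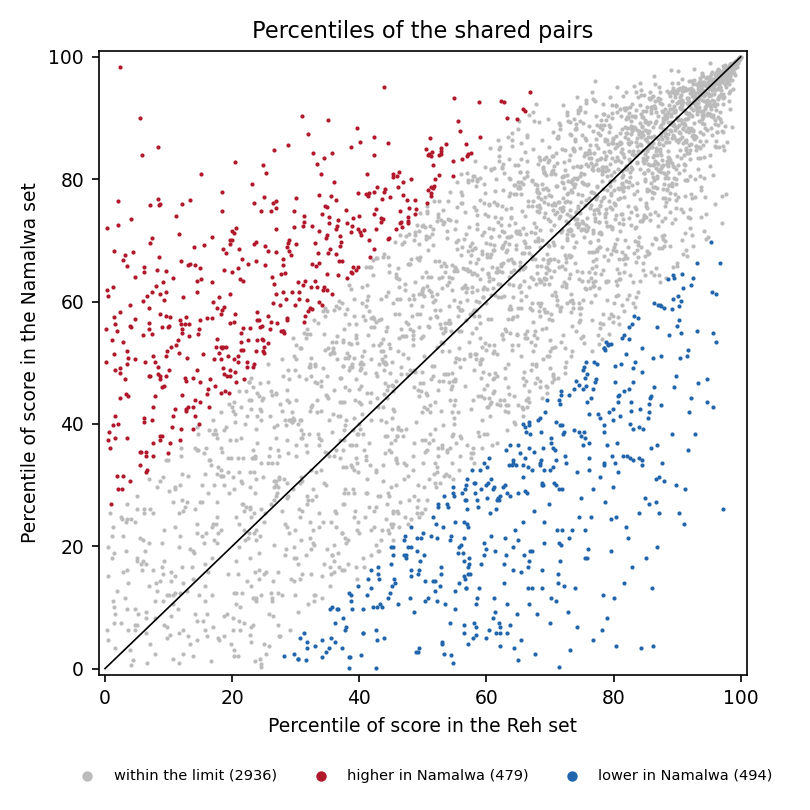
Each point is 1 of the 3909 shared pairs, with its percentile of score in the Reh set on the horizontal and in the Namalwa set on the vertical axis, and the line marks equal percentiles. Red points (479) lie over 25 points higher in Namalwa and blue points (494) over 25 points lower, and the points draw together towards the upper right corner.

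Downward and upward shifts differed in the shape of the peaks. Pairs lower in Namalwa joined a narrow Namalwa peak (median 230 bp, 6.51 score units per bp) to a wide Reh peak (890 bp, 11.1 units). Those higher in Namalwa had a Namalwa peak of 350 bp at 7.5 units and a Reh peak of 530 bp at 10.8 units. Pairs within the limit had a median Reh width of 740 bp. Width is part of the score, so the sizes describe these shifts and do not stand apart from them. Splitting of a Reh site into several Namalwa peaks went with the downward shifts: 20.6% of their Reh peaks held 2 or more Namalwa peaks, against 0.626% of those of upward shifts and 10.5% within the limit. Among the 3495 pairs whose Reh peak held a single Namalwa peak 24.8% moved by over 25 points, against 24.9% of all pairs. These shares take both directions together, and the part of splitting in the shifts was not tested.

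The largest upward shift was on chromosome 2 at 32994701 to 32995110. The Namalwa peak scored 17824 and stood at percentile 98.3, whereas the Reh peak at 32994711 to 32995100 scored 4616 and stood at 2.36 of its set, a shift of 96.0 points. Both peaks were of like width (410 and 390 bp), and they had 43.5 and 11.8 score units per bp. L1236 had a peak there at percentile 95.8 of its list, L428 at 37.7 and L591 at 20.7. The next shifts were 84.5 points on chromosome 12 at 122025071 to 122025900 and 78.3 points on chromosome 3 at 4509731 to 4510280. At both the Namalwa peak was the wider one (830 against 520 bp and 550 against 420 bp), and all Hodgkin lines had a peak.

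The remaining 7 upward shifts of the leading 10 ranged from 68.4 to 76.9 points. They lay on chromosome 9 at 139064231 to 139064590, 67010461 to 67010750 and 103335701 to 103336150, on chromosome 4 at 48992561 to 48992990 and 3229521 to 3229950, on chromosome 1 at 171054661 to 171055080 and on chromosome 19 at 18608181 to 18608650. Their Namalwa scores ran from 3152 to 4496. The Reh score of all 10 pairs lay between 4528 and 4856, next to the limit of 4520, so that each was within 8.34 percentiles of the bottom of the Reh set. No Hodgkin peak was found at 171054661 on chromosome 1 and 3229521 on chromosome 4.

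The largest downward shift was on chromosome 19. A Namalwa peak of 170 bp at 17483321 to 17483490 scored 1048 (percentile 3.67), and the Reh peak of 1260 bp at 17483151 to 17484410 scored 13392 (86.2), a shift of -82.5 points. Each Hodgkin line had a peak there, with L591 at percentile 77.3 of its whole list, L428 at 68.3 and L1236 at 48.5. In the whole Reh list the Reh peak stood at 97.2, and percentiles of lists of unlike length are not on 1 scale. On chromosome 5 a Namalwa peak of 160 bp at 176671931 to 176672090 lay in a Reh peak of 1490 bp (shift -81.0), and the site was at percentile 98.2 in L428 and 92.5 in L591. The third, on chromosome 8 at 145085771 to 145085940, moved by -76.7 points and had no Hodgkin peak.

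All 10 leading downward pairs had a Namalwa peak of 150 to 220 bp inside a Reh peak of 1050 to 3060 bp. The others lay on chromosome 15 at 92575181 to 92575400 and 42808411 to 42808600, on chromosome 16 at 87073811 to 87073980, on chromosome 17 at 71417291 to 71417440 and 33362171 to 33362380, on chromosome 9 at 85784921 to 85785080 and on chromosome 2 at 122124001 to 122124180. At 92575181 the peak paired by shared bases scored 1248 (percentile 13.1), and another Namalwa peak in the same Reh peak scored 1456 (23.6). The chromosome 17 site at 33362171 stood at percentile 97.3 of the Reh set, where it spanned 3060 bp, and at 26.1 in Namalwa. It neighboured the Reh-only peak at 33359021 named above. At 42808411 on chromosome 15 the site was strong in each Hodgkin line (percentile 97.4 in L591, 96.6 in L1236 and 94.4 in L428) and at percentile 6.30 in Namalwa.

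Against the whole Hodgkin lists the upward pairs had the higher share in each line, and the difference was not tested. Their Namalwa peaks were also the wider ones, with a median of 350 bp against 230 bp. An L591 peak overlapped 87.1% of the upward (83.7 to 89.9) and 83.6% of the downward Namalwa peaks (80.04 to 86.8), and an L428 peak 82.3% (78.5 to 85.6) and 76.1% (72.1 to 79.8). For L1236 the shares were 68.3% (63.9 to 72.4) and 61.9% (57.5 to 66.2). The gap was smaller for the Reh peaks of the same pairs. Their shares were 87.1% and 85.4% in L591, 82.5% and 79.8% in L428, and 68.7% and 67.6% in L1236, with overlapping intervals in each line. In the L591 set of equal length the shares of upward and downward Namalwa peaks were 49.1% (44.5 to 53.6) and 60.3% (55.9 to 64.7). In that of L428 they were 40.9% (36.5 to 45.5) and 45.3% (40.9 to 49.9). Pairs within the limit were more often in the L591 set, at 69.8% (68.1 to 71.4).

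Chromosome 4 stood apart from the others in the 1-sided peaks, a chromosome singled out after the values of all 22 had been seen. Of its 226 Namalwa peaks 84 had no Reh partner (37.2%, 30.9 to 43.8), compared with 22.1% over the set, and of its 153 Reh peaks 33 had no Namalwa partner (21.6%, 15.3 to 28.9), compared with 30.7%. On each of the other 21 chromosomes the Reh-only share exceeded the Namalwa-only share. Those ran from 25.3% on chromosome 7 to 37.3% on chromosome 10 for Reh, and from 14.6% on chromosome 18 to 26.0% on chromosome 6 for Namalwa. Chromosome 4 thus held 6.74% of all Namalwa-only peaks (5.41 to 8.28) and 1.90% of Reh-only peaks (1.31 to 2.66), and with peaks ranked by score per bp the values were 4.79% and 3.03%.

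A stretch of chromosome 4 from 48 to 50 Mb contributed 25 of the 84, and the rest lay elsewhere on the chromosome. Without that stretch the shares were 4.83% of Namalwa-only peaks (3.70 to 6.19) and 1.73% of Reh-only peaks (1.17 to 2.47). All 25 peaks had a lower-scoring Reh peak, 16 had an L1236 peak, 13 an L591 peak and 10 an L428 peak. Over all Namalwa-only peaks 92.8% had a lower-scoring Reh peak, 40.4% an L1236 peak, 64.0% an L591 peak and 51.0% an L428 peak. Chromosome 4 as a whole held 4.005% of the Namalwa list (3.51 to 4.55) and 2.71% of the Reh set (2.30 to 3.17), or 3.15% of the whole Reh list. The sets of L1236, L591 and L428 had 3.79%, 2.48% and 1.86%.

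**Figure D5:**
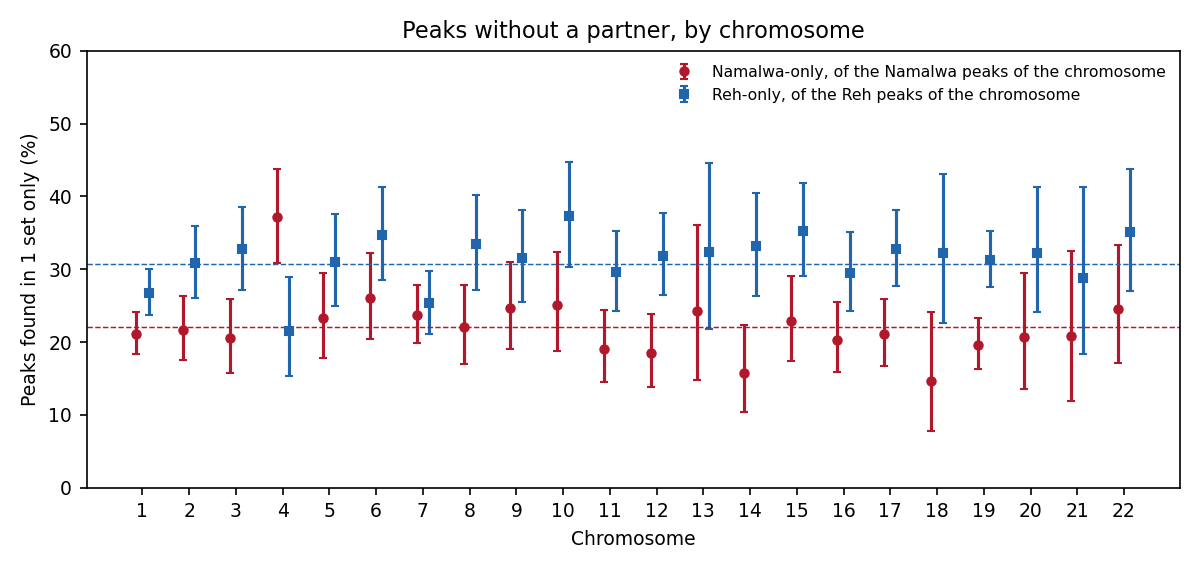
For each chromosome, the percentage of its Namalwa peaks (circles) and of its Reh peaks (squares) without a partner in the other set, with exact 95% intervals and dashed lines at the values over all chromosomes, 22.1% and 30.7%. Chromosome 4 is the only one where the Namalwa share, 37.2%, lies above the Reh share, 21.6%.

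One-sided peaks were found in 1191 windows of 1 Mb, of which 422 held both kinds. Namalwa-only peaks were most numerous between 49 and 50 Mb of chromosome 4, with 13 of the 43 Namalwa peaks there. The same number was found between 86 and 87 Mb of chromosome 8, out of 20. Chromosome 4 from 48 to 49 Mb followed with 12 of 31, then chromosome 1 from 142 to 143 Mb with 8 of 20. Over the whole sets 22.1% of Namalwa and 30.7% of Reh peaks were 1-sided. The window with the most Reh-only peaks was between 41 and 42 Mb of chromosome 19, with 23 of the 34 peaks of the Reh set there. The window had 82 peaks in the whole Reh list, 21 in Namalwa, 24 in L428, 21 in L591 and 16 in L1236. Chromosome 8 from 86 to 87 Mb came next with 15, so that this window was rich in both kinds although Namalwa had 20 peaks and the Reh set 22. The whole Reh list held 116 peaks there, L428 29, L591 26 and L1236 10. Chromosome 11 from 64 to 65 Mb had 11 Reh-only among 21 peaks of the Reh set and 3 Namalwa-only among 13 Namalwa peaks. On chromosome 19 from 2 to 3 Mb the counts were 10 of 27 and 4 of 22. Chromosome 1 from 159 to 160 Mb, which held a pair of the strongest Reh-only peaks, had 9 Reh-only and 7 Namalwa-only peaks, with 27 peaks in either set.

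Median shifts of the shared pairs by chromosome ran from -1.67 points on chromosome 3 to 2.99 points on chromosome 9. Chromosome 4 had 27 pairs beyond 25 points upwards and 16 downwards among 120. Chromosome 11 had the opposite balance, with 15 and 30 among 200, and chromosome 18 had 8 and 2 among 59. In windows of 5 Mb with at least 10 pairs, a size chosen after the data had been seen, the median shift of 124 windows ran from -21.0 to 13.2. The lowest was chromosome 7 from 0 to 5 Mb, where 11 of 15 pairs were lower in Namalwa, and the neighbouring window from 5 to 10 Mb had a median of -14.9. Chromosome 14 gave -17.2 from 100 to 105 Mb and -15.9 from 90 to 95 Mb. On chromosome 1 from 0 to 5 Mb 25 of 33 pairs were lower in Namalwa, with a median of -10.8. The highest median, 13.2, belonged to chromosome 5 from 135 to 140 Mb, with 9 of 15 pairs higher in Namalwa.

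Pairs beside 1-sided peaks had median shifts near 0 with shifts in both directions. Within 10000 bp of a Reh-only peak lay 335 pairs with a median shift of -0.230 points, of which 16.7% were over 25 points lower and 14.6% higher in Namalwa. Within the same distance of a Namalwa-only peak were 413 pairs with a median of 0.461, of which 10.9% were lower and 15.0% higher. Over all pairs these shares were 12.6% and 12.3%.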

How the data were processed

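The data were the deposited DNase-seq peaks of 5 human lines, 1 library each. Bowtie 1.00 and hg18 stand in the submitters' processing notes. Per the file columns, reads had been extended to 146 bp and binned by 10 bp. Read depth, peak caller and threshold were not given in the sources used here. As score the authors deposited the area of each peak, in whole numbers divisible by 8 and without a stated scaling, and it served only for ranks or to describe a list. Peaks had been listed per line.

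All Namalwa peaks on chromosomes 1 to 22 and the same number of highest-scoring Reh peaks were compared (ties: lower chromosome, lower start). Percentiles run from 0 to 100 within a set. Pairs were mutual best overlaps. Shares have Clopper-Pearson intervals (95%, counting error only). No test was possible with 1 library a line. Named regions were the 10 leading ones of each class and the 5 leading windows, with others named as chosen after seeing values. The members, lists and limits were chosen with earlier results of these data known. The functions were tested on simulated lists. Peaks outside chromosomes 1 to 22 were left out. Planned gene and marker lists were not run, and no gene names or sequences are given, since the reference tables were of another build. Scripts ran in Python 3.11.15 with scipy 1.17.1, pandas 2.3.3 and numpy 2.4.6.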

Additional observations from a re-analysis of the deposited data

Results flagged for a closer look

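Signal outside the comparison was high on the mitochondrial genome. Its peaks, 2 in each list, held 68.3% of the score summed over the Namalwa list and 46.2% of that over the Reh list.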

How the results depend on the processing

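No paired analysis was possible because each line gave 1 library and the labels number no replicates. Of 99 recomputed values under 11 alternatives 62 stayed within the interval of the reported value (or within 10% for rho and the median absolute shift) and 37 moved. An overlap of at least 50% of the shorter peak, chromosome X, and leaving out chromosome 1 moved none of the values. With peak centres within 250 bp, 66.9% of Namalwa and 64.9% of Reh peaks were shared, and 70.6% of Namalwa-only and 74.5% of Reh-only peaks had a Hodgkin peak. Those values were 61.5%, 60.5%, 69.1% and 71.0% with peaks of 200 bp, where Namalwa-only peaks numbered 2175 against 1246. In the upper 50% of the lists they were 76.5%, 70.8%, 88.9% and 87.5%. Joining peaks up to 200 bp apart gave 76.5% and 71.1% shared. Ranked by score per bp, 75.6% of Namalwa and 67.8% of Reh peaks were shared, rho was 0.587, the median absolute shift 14.7 points and 32.0% of pairs moved by over 25 points. In that ranking chromosome 4 held 4.79% of Namalwa-only and 3.03% of Reh-only peaks, and 69.8% of Namalwa-only peaks had a Hodgkin peak. Ranked by width, these were 65.6% and 56.8% shared, rho 0.342, a median absolute shift of 21.4 points and 43.1% of pairs, with a Hodgkin peak at 83.1% of 1944 Namalwa-only and 69.5% of Reh-only peaks. Against the whole Reh list 98.4% of Namalwa peaks and 18.6% of Reh peaks were shared, which leaves 90 Namalwa-only and 22397 Reh-only peaks. There the median absolute shift was 31.5 points, 59.7% of pairs moved by over 25 points, 60% of Namalwa-only and 43.6% of Reh-only peaks had a Hodgkin peak, and chromosome 4 held 2.98% of Reh-only peaks. The alternative without 8 windows of 1 Mb was added after seeing the data, and there chromosome 4 held 4.98% of Namalwa-only peaks. Recomputed shares against Hodgkin sets of equal length under the alternatives were also added after seeing the data. In these sets the Reh-only share exceeded the Namalwa-only share in 10 of 11 alternatives for L428 and L591, the exception being the whole Reh list, and in 9 of 11 for L1236. In the upper 50% of the lists the L428 shares were 23.3% (20.5 to 26.4) and 20.3% (17.3 to 23.6), with overlapping intervals. Those of L591 were 32.7% (29.5 to 36.0) and 21.8% (18.8 to 25.2). Causes of these changes were not tested. With unknown depth, absence from the Namalwa list does not show closed chromatin.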
